A study of Mus musculus with 4 samples.

Results

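The transcription factors that direct red cell development were read in RNA of E14.5 mouse fetal livers from WT and Stk40 KO embryos. The 6 genes were Gata1, Klf1, Nfe2, Tal1, Lmo2 and Zfpm1, each taken by 1 probe set fixed by its identifier, so 6 of the 45101 probe sets on the arrays were followed. Gene names of these probe sets were given with the selection, since no probe annotation was used here, and other probe sets of the same genes have no name here. No measured value chose them. Both genotypes were embryos in a C57BL/6J background, obtained by mating Stk40 heterozygotes. The deletion is a conventional knockout, so Stk40 was missing from every cell type of the liver and not from red cell precursors alone. Each genotype had 2 Affymetrix mouse genome arrays, and each array was hybridized with RNA pooled from 6 livers of that genotype, so the spread between arrays is one between pools and not between embryos. RNA came from whole livers, in which fewer cells of a type and less RNA per cell cannot be told apart.

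The fetal liver is the main site of definitive red cell production before birth. GATA1 and TAL1 bind DNA at GATA sites and E-boxes, and LMO2, which binds no DNA itself, bridges them into a complex that switches on erythroid genes. FOG1, the product of Zfpm1, is the cofactor through which GATA1 activates some genes and represses others. KLF1 binds CACCC sites and drives the globin, heme and membrane genes of maturing red cells, while NFE2 is the erythroid and megakaryocytic subunit of NF-E2, which acts at the globin locus control region. Gata1, Tal1, Zfpm1 and Nfe2 are also expressed in megakaryocytes, and Lmo2 and Tal1 in endothelium.

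These genes also regulate one another. The 250 bases before the annotated start were available for 4 of the 6 genes in RefSeq promoter sequences (GRCm38.p6). Those of Gata1 and Klf1 are shown because, after scaling and over all 4 arrays, the difference between genotypes was smallest for Gata1 and largest for Klf1. Capitals mark matches, on either strand, to a GATA motif (AGATAA or AGATAG or TGATAA or TGATAG) or to a CACCC motif (CCNCNCCC).
Gata1, chrX:7967911-7968160, minus strand: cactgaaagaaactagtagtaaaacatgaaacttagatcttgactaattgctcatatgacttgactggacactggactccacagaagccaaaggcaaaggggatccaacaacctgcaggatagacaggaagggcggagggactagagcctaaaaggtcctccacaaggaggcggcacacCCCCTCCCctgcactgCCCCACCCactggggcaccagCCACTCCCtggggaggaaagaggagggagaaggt
Klf1, chr8:84901732-84901981, plus strand: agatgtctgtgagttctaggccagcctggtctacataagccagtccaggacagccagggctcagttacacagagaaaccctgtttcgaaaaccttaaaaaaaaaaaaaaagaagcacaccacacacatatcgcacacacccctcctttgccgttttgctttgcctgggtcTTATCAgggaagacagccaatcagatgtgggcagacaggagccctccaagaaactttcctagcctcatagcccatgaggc
The Gata1 window, upstream of the transcript that starts at position 7967910, held 3 CACCC matches and 0 GATA matches. The Klf1 window held 1 GATA match, from base -80 to base -75 counted from the start, and 0 CACCC matches. An E-box (CANNTG) followed the GATA match in the Klf1 window, from base -59 to base -54, and the Gata1 window also had 1 E-box. Neither window held the NF-E2 core TGANTCA. Of 32851 RefSeq promoter windows of the same length, 26.5% held a GATA match, 45.9% a CACCC match, 66.2% an E-box and 6.7% an NF-E2 core. These matches are letters in a window and do not show binding.

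The arrays differed in brightness, which bears on every value that follows. The deposited intensities are linear, in arbitrary units and not scaled between arrays. WT arrays had a 75th percentile of positive values of 205 and 246, and Stk40 KO arrays one of 266 and 263. The spiked control probe sets above noise differed too, with a mean log2 intensity of 9.94 and 10.25 in WT and 10.25 and 10.4 in Stk40 KO. Their mean shift, Stk40 KO minus WT, was 0.23. Values are therefore given as deposited and after each array had been scaled to the same 75th percentile. The scaling moved the median log2 difference (Stk40 KO minus WT) of the tested probe sets from 0.18 to -0.04. The 6 factors were bright, with every scaled value at least 8.51 times the noise level (143 in intensity, which 95% of the negative values do not exceed in size). The probe set named Stk40 in the authors' table read 59.9 and 52.2 in WT and -98.9 and -111 in Stk40 KO as deposited. All 4 lie under the noise level, and whether the probes lie within the deletion was not looked up.

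After scaling, none of the 6 factors passed the test for a difference between WT and Stk40 KO livers (limma, adjusted p from 0.0752 to 0.773). Klf1, Nfe2, Tal1, Lmo2 and Zfpm1 had mean intensities in Stk40 KO that were 0.812 to 0.895 of those in WT, with no overlap between genotypes. Gata1 stood at 0.969 of WT, and its values overlapped. At an unadjusted p under 0.05, 5 of the 6 would have been counted as lower, against 11.4% of all tested probe sets. Across the 12319 probe sets tested, limma called 147 (1.19%) higher and 82 (0.666%) lower in Stk40 KO at an adjusted p under 0.05. These counts rest on few arrays, since leaving out 1 array gave 103 to 462 higher and 121 to 312 lower, or 0 and 0 with the filter of all 4 arrays kept. The groups did not overlap, with Stk40 KO lower, for 32.4% of all tested probe sets and, with Stk40 KO higher, for 16%. The median log2 difference of the 6 factors was -0.20, against -0.04 for all tested probe sets.

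**Figure D1:**
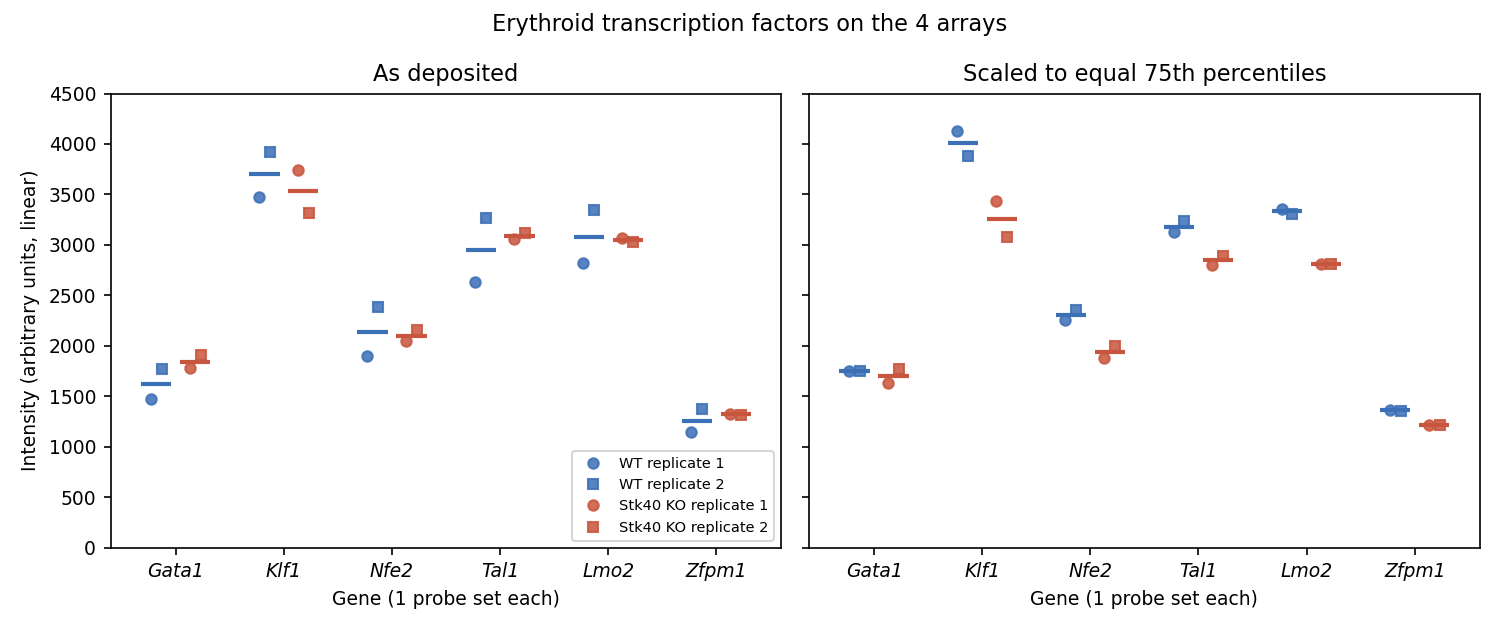
Intensity (arbitrary units, linear axis from 0) of each factor on the 4 arrays, as deposited on the left and scaled to equal 75th percentiles on the right, with points for arrays and bars for the mean of the 2 arrays of a genotype. After scaling, Stk40 KO lies below WT for 5 factors and overlaps with it for Gata1, whereas as deposited only Gata1 shows no overlap, with Stk40 KO above.

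Gata1, the zinc finger factor on which red cell maturation depends, had deposited intensities of 1475 and 1773 in WT and of 1777 and 1908 in Stk40 KO. Scaled, these were 1751 and 1756 in WT and 1629.5 and 1769.5 in Stk40 KO. The Stk40 KO values thus lay on either side of the WT values once the 75th percentiles were equal, while as deposited both were above them. The scaled means were 1754 ± 3.45 (SD, n = 2 arrays) in WT and 1699.5 ± 99.0 in Stk40 KO. The log2 difference by limma was -0.05 (standard error 0.07, adjusted p = 0.773), with a 95% confidence interval that runs from 0.871 to 1.08 as a fold of WT. Its sign was not settled, since the difference was 0.0192 with quantile normalization, 0.0202 with arrays centred on probe sets as bright as the factors, 0.0131 without Stk40 KO replicate 1 and -0.11 without Stk40 KO replicate 2. A fall of the probe set's signal by more than 1.15-fold lies outside that interval. The study measured Gata1 protein by western blot in such livers and reported less of it in Stk40 KO. The arrays give the RNA only.

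Klf1, the CACCC-binding factor, had the largest scaled difference of the 6 over all 4 arrays. Without WT replicate 1 it was behind Nfe2 (-0.26 against -0.29), and without Stk40 KO replicate 2 it was behind Nfe2 and Lmo2 (-0.22 against -0.30 and -0.25). The deposited intensities of Klf1 were 3477 and 3922 in WT and 3743 and 3318 in Stk40 KO, which overlap. Scaled, they were 4128 and 3884 in WT and 3432 and 3078 in Stk40 KO, so that both Stk40 KO pools lay below both WT pools. The scaled means of 4006 ± 173 and 3255 ± 250.3 gave a log2 difference of -0.30 (standard error 0.07, 95% confidence interval -0.46 to -0.14, adjusted p = 0.0798). Klf1 passed the threshold when the floor under dim values was lowered (adjusted p = 0.0465) or removed (0.0466), when testing was restricted to probe sets brighter than noise on every array (0.0344), and without WT replicate 2 (0.0118) or Stk40 KO replicate 1 (0.012) when the noise level and filter were set anew on the arrays left. With the noise level and filter of all 4 arrays kept, no left-out array made it pass (adjusted p from 0.322 to 0.6). In all, 6 of 18 alternatives called Klf1, and those that did not included quantile normalization (-0.21, adjusted p = 0.235), scaling to spiked controls (0.251) and a fit without a trend (0.171).

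Nfe2, whose product pairs with small Maf proteins to form NF-E2, had scaled intensities of 2257 and 2360.4 in WT and 1875 and 1999 in Stk40 KO. Its log2 difference was -0.25 (standard error 0.06, 95% confidence interval -0.40 to -0.11, adjusted p = 0.0967). The deposited values of Nfe2, 1900.45 and 2384 in WT and 2045 and 2155 in Stk40 KO, overlap.

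Tal1, the basic helix-loop-helix partner of GATA1, had scaled intensities of 3131 and 3232 in WT and 2805 and 2889 in Stk40 KO. Its log2 difference was -0.16 (standard error 0.06, 95% confidence interval -0.29 to -0.03, adjusted p = 0.205). As deposited, Tal1 read 2637 and 3264 in WT and 3059 and 3115 in Stk40 KO, so that the WT arrays lay on either side of the Stk40 KO arrays and the sign of the difference turned (0.07).

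The scaled values of the non-DNA-binding members were close between replicates. Lmo2, the bridging protein of the complex, had 3352 and 3311 in WT and 2810.2 and 2813 in Stk40 KO, a log2 difference of -0.24 (standard error 0.06, 95% confidence interval -0.37 to -0.12, adjusted p = 0.0752). Lmo2 passed when testing was restricted to probe sets brighter than noise on every array (adjusted p = 0.0483). As deposited it had 2823 and 3344 in WT and 3065 and 3032 in Stk40 KO.

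Zfpm1, which encodes FOG1, had scaled intensities of 1367 and 1358 in WT and 1216 and 1219.7 in Stk40 KO. Its log2 difference was -0.16 (standard error 0.06, 95% confidence interval -0.30 to -0.02, adjusted p = 0.229). The replicates of each genotype lay within 0.01 of each other on the log2 scale, but limma draws each spread toward that of all probe sets of like brightness. The deposited values of Zfpm1, 1151 and 1371 in WT and 1327 and 1315 in Stk40 KO, overlap, with a difference of 0.07.

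On the intensities as deposited none of the 6 passed (limma, adjusted p from 0.693 to 0.969), and 3 had a positive and 3 a negative difference. There limma called 2.25% of 12600 probe sets higher and 0.0873% lower in Stk40 KO (284 and 11 probe sets). Groups that did not overlap made up 45.5% of them with Stk40 KO higher, among them Gata1, and 1.30% with Stk40 KO lower. One scaling factor per array shifts all log2 differences by about the same amount, so the differences relative to the median of all tested probe sets were near each other by construction. For Klf1 that relative log2 difference was -0.26 scaled and -0.25 as deposited, for Nfe2 -0.22 and -0.20, and for Lmo2 -0.21 and -0.19. Tal1 stood at -0.12 and -0.11, Zfpm1 at -0.13 and -0.11, and Gata1 at -0.01 and 0.0036. Of all tested probe sets, 3.27% had a lower scaled difference than Klf1 and 5.71% than Nfe2. That share was 16.4% for Tal1, 16.2% for Zfpm1 and 46.8% for Gata1.

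**Figure D2:**
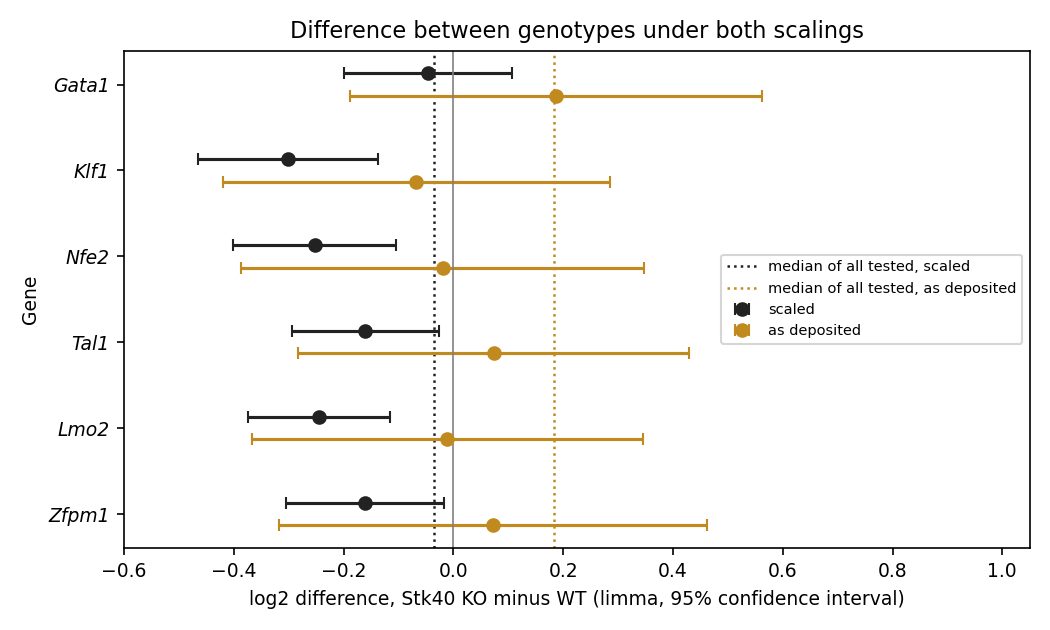
Log2 difference between Stk40 KO and WT for each factor by limma, with bars for the 95% confidence interval, scaled (black) and as deposited (ochre), and dotted lines at the median of all tested probe sets. Gata1 sits near the dotted line under both scalings, at -0.05 and 0.19, and Klf1 lies farthest to the left, at -0.30 and -0.07.

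After scaling, bright probe sets as a group leaned the same way. Among the 1416 probe sets between the dimmest and the brightest of the 6 factors (mean scaled intensity 1288 to 3607), the median scaled log2 difference was -0.08 and 77.9% were negative, while as deposited the median was 0.15. limma called 16 of them higher and 13 lower, and the smallest difference it called there was 0.31 in size. Relative to the median of these bright probe sets, Klf1 stood at -0.22, Nfe2 at -0.17, Lmo2 at -0.17, Tal1 and Zfpm1 at -0.08, and Gata1 at 0.03.

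A ratio of signals on the same array does not depend on the scaling, and such ratios between the factors were taken after their values had been seen. In each of the 5 ratios with Gata1 as numerator, both Stk40 KO arrays lay above both WT arrays. All 5 share the Gata1 signal, and their mean shifts restate the differences given above. They are therefore not 5 separate observations. On the log2 scale and with the WT mean as 0, Gata1 over Nfe2 was 0.19 and 0.22 in Stk40 KO, against 0.03 and -0.03 in WT. Gata1 over Lmo2 was 0.14 and 0.26, against -0.01 and 0.01 in WT. Gata1 over Klf1 was 0.12 and 0.39, against -0.05 and 0.05, so that Stk40 KO replicate 2 lay well above replicate 1. For Tal1 and Zfpm1 as denominators the mean shift was smaller, 0.11 and 0.12. The same was seen for the ratio of Gata1 to 22.0% of the 10720 other probe sets that exceeded noise on every array. With 2 arrays against 2, an exact permutation test of 1 ratio cannot give a two-sided p below 0.333, so none was made.

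**Figure D3:**
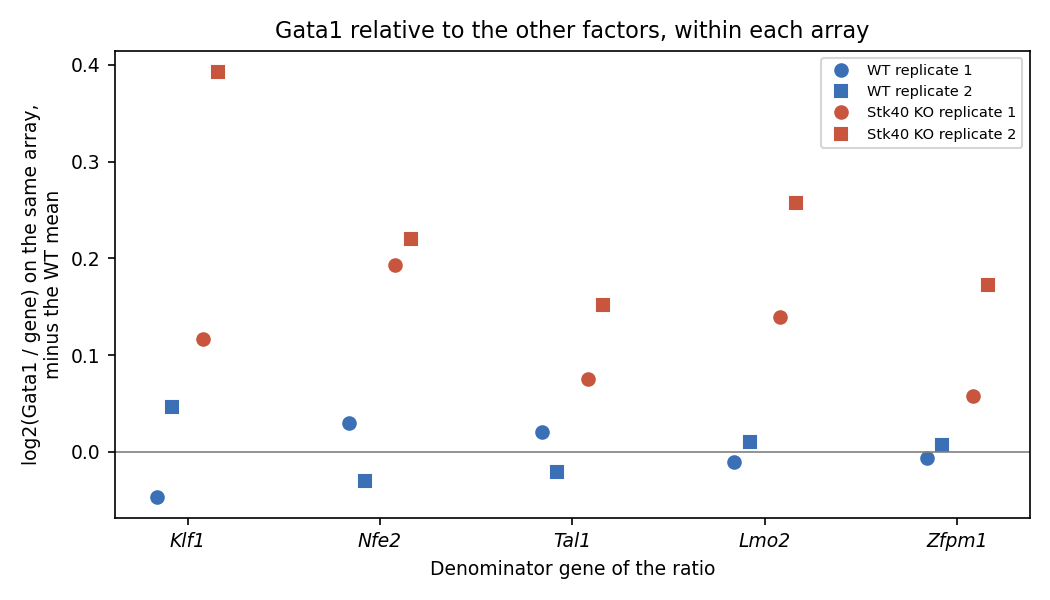
Log2 ratio of the Gata1 signal to that of each other factor on the same array, minus the WT mean of that ratio, with circles for replicate 1 and squares for replicate 2. Both Stk40 KO arrays lie above both WT arrays in all 5 ratios, by a mean of 0.11 (Tal1) to 0.25 (Klf1).

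Of the ratios without Gata1, Klf1 over Nfe2, over Tal1 (mean shift -0.14) and over Lmo2 overlapped between genotypes, and Klf1 over Zfpm1 did not, with a mean shift of -0.14. Klf1 ratios that did not overlap, with Stk40 KO lower, were found for 71.0% of the same 10720 probe sets. Nfe2 over Lmo2 differed by -0.0084 and Tal1 over Zfpm1 by 0.0011, and both overlapped. Genotypes did not overlap, with Stk40 KO lower, for Nfe2 over Tal1 (-0.09), Nfe2 over Zfpm1 (-0.09) and Lmo2 over Zfpm1 (-0.08), nor, with Stk40 KO higher, for Tal1 over Lmo2 (0.08). Ratios without overlap were thus found with and without Gata1. A share over other probe sets was taken only for Gata1 and Klf1 ratios. Without one, nothing is concluded from the lack of overlap in the other ratios.

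By the rule that looks for the named genes most like Gata1 over the 4 arrays, the nearest were Tal1, Zfpm1 and Obi1, a ubiquitin ligase of replication origins, out of 81 named candidates. The root mean square distance of their centred log2 values from those of Gata1 was 0.0647, 0.0706 and 0.0818. This is no close match, since 30.3% of all tested probe sets lay nearer to Gata1 than Tal1 did. Apart from the factors themselves, candidates carried a name only because they had a 2-fold change in the authors' table.

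That table is the only other source of names, and it names few genes of the erythroid programme. Of 70 listed partners of the complex, NF-E2 relatives, other erythroid factors and progenitor factors it names 6, and of 56 erythroid target genes (globins, heme enzymes, receptors and membrane proteins) it names 1. None of these 7 was bright enough to be tested. Red cell, megakaryocyte and hepatocyte markers have no name here, so the labelled tissue could not be checked against them. Markers of neutrophils could be read in part. Of 12 such genes 4 are named (Ngp, Camp, Ltf and Lcn2), all of them tested and higher in Stk40 KO, although a 2-fold change on these arrays is what gave them a name. Their summed scaled intensity was 2033 and 1747 in WT and 3794 and 5399 in Stk40 KO, and none of the 4 was at 0. Lyz2, the lysozyme of macrophages and neutrophils and 1 of 12 macrophage genes listed, had scaled intensities of 927 and 921 in WT and of 1667 and 1719.85 in Stk40 KO (log2 difference 0.87, adjusted p = 0.000797), and is named for the same reason. Of the other macrophage genes, Marco and Cd163 are named and were too dim to be tested. The study's flow cytometry, with heterozygotes among the controls, reported a lower frequency of red lineage cells in Stk40 KO livers of this age. Pro-erythroblasts with early basophilic erythroblasts rose in frequency, and the stage after them fell. Granulocytes and monocytes rose in frequency, without an obvious difference in absolute number. The part of cell frequencies or of these marker genes in the lower values of the erythroid factors was not tested.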

How the data were processed

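Total RNA of E14.5 fetal livers was hybridized to 4 Affymetrix mouse genome arrays, 2 per genotype, with groups and replicate numbers taken from the submitters' labels. The authors deposited a linear intensity per array for 45101 probe sets, and their processing notes name MAS5 without a version. The values are not scaled between arrays, and 99.9% are multiples of 1/11 within 0.001. A second deposited table holds intensities (low and negative ones raised to 0.1), means, fold changes and gene symbols of probe sets with a 2-fold change. Only its symbols were used (1418 of 1467 probe sets have 1), and none of the 6 factors is in it.

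Arrays were brought to a common 75th percentile of positive values, values under the noise level were raised to it, log2 was taken, and 12319 probe sets exceeding that level on 2 or more arrays were tested with limma 3.58.1 in R 4.3.3 (lmFit, eBayes with a trend). Benjamini-Hochberg adjustment covered all of them, with a threshold of 0.05. limma's prior degrees of freedom were 6.25 scaled and infinite as deposited, where the fitted trend alone set each variance. Only 2 pools per genotype and the signal over background limit the precision: 24.1% to 28.5% of probe sets per array exceed the noise level. Only the limma step was tested on simulated data, with planted changes larger than those of the factors and no brightness differences between arrays. It does not tell how well differences of the size seen here are found.

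The factors, the gene lists and the alternatives were chosen with earlier results of these data known. The ratios between factors, the centring on bright probe sets and the form of the leave-one-out fit were chosen after the values had been seen. Named genes are the 6 factors, Stk40, up to 4 members of each list that passed and up to 2 that did not, and the 3 genes most like Gata1.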

Additional observations from a re-analysis of the deposited data

How the results depend on the processing

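Across 18 alternatives, Klf1, Nfe2 and Lmo2 had a negative difference in each, with a range of -0.38 to -0.07 for Klf1, -0.30 to -0.02 for Nfe2 and -0.25 to -0.01 for Lmo2. Many of the 18 could not turn a sign. The lower floor, the stricter filter, the fit without a trend, the t-test and the block left these differences unchanged. Removing the floor moved them little, and both forms of leaving out an array gave the same differences. Only the scalings, the centring and the left-out arrays bear on the sign. Without scaling the difference of Gata1 was 0.187, of Tal1 0.0733 and of Zfpm1 0.0722, opposite in sign to the scaled values. Tal1 and Zfpm1 were each negative in 17 of the 18 alternatives, among them scaling to spiked controls (-0.154 and -0.155). Gata1 was also positive with quantile normalization (0.0192) and when arrays were centred on probe sets as bright as the factors, an alternative chosen after seeing the data (0.0202). Leaving out each array in turn, the differences ran from -0.11 to 0.0131 for Gata1 (0.0131 without Stk40 KO replicate 1), from -0.38 to -0.22 for Klf1, from -0.30 to -0.21 for Nfe2, from -0.18 to -0.14 for Tal1, from -0.25 to -0.24 for Lmo2 and from -0.17 to -0.16 for Zfpm1. A group left with 1 array was assumed to vary like the other.

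Klf1 passed the threshold at -0.30 with the floor lowered, with log2 of the value plus 16 and no floor, and with only probe sets above noise on all arrays, where Lmo2 also passed at -0.24. With the replicate number as a block, Klf1 (-0.30, adjusted p = 0.00937), Nfe2 (-0.25, adjusted p = 0.0146) and Lmo2 (-0.24, adjusted p = 0.0201) passed, and 597 probe sets were higher and 750 lower. The labels do not say that a number pairs the pools, and deviations from the group means of same-numbered arrays correlated at r = 0.244 across probe sets. Over all alternatives the adjusted p ran from 0.483 to 0.962 for Gata1, 0.00937 to 0.839 for Klf1, 0.0146 to 0.952 for Nfe2, 0.0201 to 0.969 for Lmo2, 0.0905 to 0.827 for Tal1 and 0.0792 to 0.843 for Zfpm1.

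The counts of probe sets moved more. In place of 147 higher and 82 lower they were 284 and 11 as deposited, 238 and 163 with the lower floor or with none, 212 and 200 with all arrays above noise, 103 and 53 without a trend, 153 and 47 scaled to spiked controls, 463 and 110 centred on bright probe sets, and 5 and 1 by the methods' t-test after Benjamini-Hochberg adjustment. Leaving out 1 array gave 103 to 462 higher and 121 to 312 lower, with 462 and 312 without WT replicate 2, 242 and 140 without Stk40 KO replicate 1, and 142 lower without Stk40 KO replicate 2. These fits set scaling, noise level and filter anew on the 3 arrays left, a form written after a first one, which kept those of all 4 arrays, had made 0 calls in either direction. That first form gave the same differences for the 6 factors, with 395 to 784 probe sets higher and 622 to 1066 lower at an unadjusted p under 0.05 by limma, and adjusted p from 0.322 to 0.6 for Klf1. The cause was not tested. A test without a filter was left out of the alternatives, because 71.2% of probe sets sat at the floor on all arrays.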

Other observations

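Some regulators related to the erythroid factors are named in the authors' table of 2-fold changes, but every deposited intensity of theirs was under the noise level, and neither a fold nor a test is given. Gfi1, a repressor of myeloid and stem cells, had 28.5 and 49.5 in WT and 72.8 and 107 in Stk40 KO. Erg, an ETS factor of blood stem cells and endothelium, had 11.4 and 23.4 in WT and 35.7 and 43.0 in Stk40 KO. Neither of these overlaps between genotypes, which selection for a 2-fold change favours. Etv6 had 5.82 and 16.9 in WT and 30.2 and 16.7 in Stk40 KO, which overlap, and the named probe set of Runx1 was negative on both WT arrays (-5.36 and -18.7) and at 15.4 and 17.9 in Stk40 KO. Maff, a small Maf partner of NFE2, had 22.2 and 21.9 in WT and 27.5 and 65.7 in Stk40 KO. Nfe2l1, a relative of NFE2, was the only one of these 6 with both Stk40 KO values below WT, at 8.91 and 24.2 against 40.9 and 34.3. All of them carry a name because of their 2-fold change, so their directions say nothing about such regulators in general.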
